A study of Mus musculus with 6 samples.

Results

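The bHLH clock factors form the positive arm of the circadian clock together with a pair of repressors of the same fold. They were taken here as the probe sets that the array annotation pairs, under any alias, with *Arntl* (which encodes BMAL1), *Clock*, *Npas2*, *Arntl2*, *Bhlhe40* or *Bhlhe41*. Of these 6 genes, 5 had a probe set, 1 each and none shared with another gene, among the 23410 probe sets paired with at least 1 gene. *Npas2*, a paralog of *Clock* that can take its place beside BMAL1, was paired with no probe set in the annotation used and was not analysed here. The labels write the targeted gene as Bmal. The 3 Bmal1-/- mice, all labelled female, and their 3 Bmal1+/- littermates, of which replicate 1 was labelled male, were on a C57BL/6J background. All 6 were staged by histology as being in telogen, when hair follicles rest. Their age was given as postnatal day 22, although another label of Bmal1+/- replicate 1 says postnatal day 23. RNA of the dorsal skin of each mouse was put on an array of its own. The controls carried 1 mutant allele and no wild-type mice were among these samples, so that every difference below is one between homozygous and heterozygous mice. The labels do not tell which mice shared a litter, a day or an hour of sampling.

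Clock proteins of this family bind DNA as dimers through a basic helix-loop-helix (bHLH) domain. CLOCK or NPAS2, paired with BMAL1 or its paralog ARNTL2 through PAS domains, binds E-boxes and activates transcription, while BHLHE40 and BHLHE41 (also called DEC1 and DEC2) bind E-boxes as repressors. A second loop acts on the activators themselves: ROR receptors activate, and REV-ERB receptors repress, genes with ROR response elements (RREs), of which *Arntl* is the classical example. In skin, as in other peripheral tissues, the mRNA of *Arntl* cycles over the day in antiphase to that of E-box targets.

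In Bmal1-/- skin, both measured core activators were higher than in Bmal1+/- skin and the other 3 measured factors were lower on average. *Arntl* and *Clock*, 2 of the 5 measured genes, rose at an adjusted p under 0.05, against 0.0982% of all probe sets tested that were called higher. None of the 5 was called lower at that threshold with limma, against 0.132% of all probe sets. From these same samples the study had named *Arntl*, *Clock* and *Npas2* as higher and *Bhlhe41* (as *Bhlhb3*) as lower in Bmal1-/- skin. The directions of these members are therefore not independent evidence. All 3 genes that were lower on average (*Bhlhe41*, *Arntl2* and *Bhlhe40*) had an unadjusted p under 0.05 with limma. So had at least 1819 of the 23410 probe sets, in both directions together. *Bhlhe41* alone among the 3 was called when the variance was instead regularised as Cyber-T does. The study itself used Cyber-T, with an unadjusted cutoff of 0.001. *Bhlhe41* alone among the 3 also passed that cutoff here with limma. The lack of a limma call for *Bhlhe41* at the adjusted threshold therefore reflects another cutoff and is no disagreement with the study. The genotypes did not overlap in any of the 5 genes. In 2 genes the Bmal1-/- mice were all above, as in 6.99% of all probe sets, and in 3 they were all below, as in 7.68%. Ranked by p among the 23410 probe sets, *Arntl* was number 17, *Clock* number 36, *Bhlhe41* number 146, *Arntl2* number 537 and *Bhlhe40* number 1279.

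**Figure D1:**
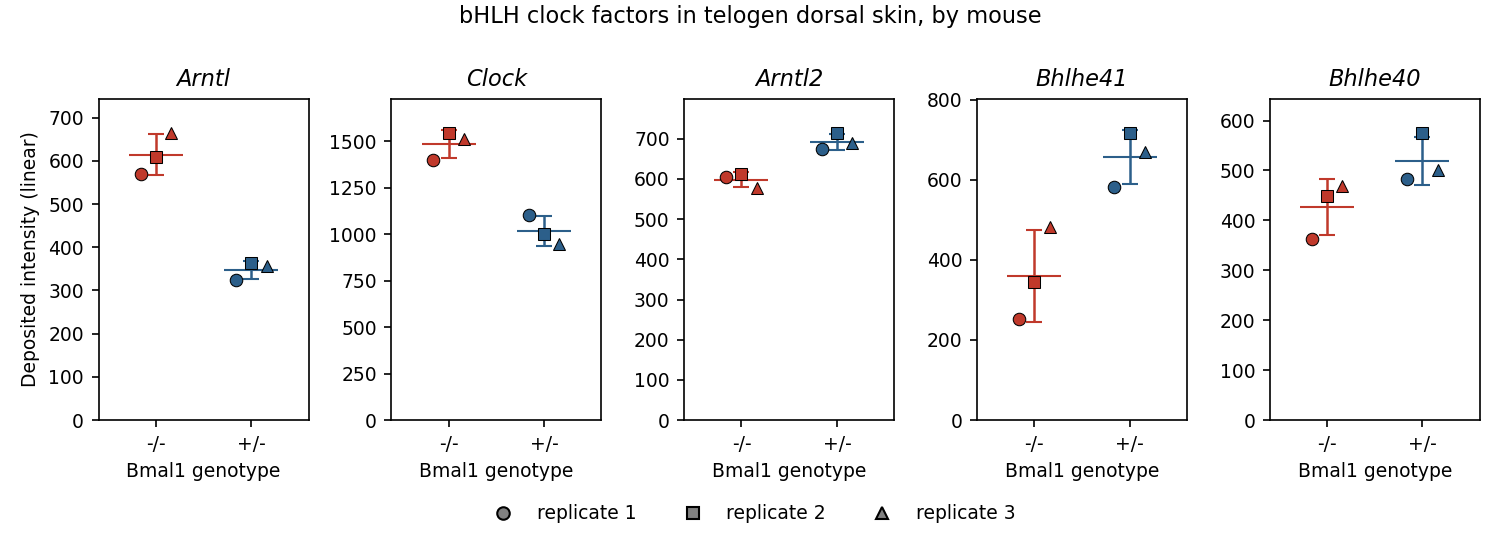
Deposited intensity (vertical axis, linear, a scale of its own for each gene) of the 5 measured bHLH clock factors in each mouse (circles, squares and triangles for replicates 1, 2 and 3), Bmal1-/- left and Bmal1+/- right, with horizontal lines at the genotype means and vertical lines for the SD (n = 3). *Arntl* and *Clock* lie higher in all 3 Bmal1-/- mice, the other genes lie lower in all 3, and *Bhlhe41* has the widest spread, 252.7 to 482 in Bmal1-/- mice.

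Short stretches of the mouse genome (RefSeq, GRCm38.p6) were searched for the letters of elements through which such loops are known to act. Matches are shown for the members whose RefSeq start region carries one. Capitals mark the motif and each sequence runs 5′ to 3′ on the strand of the gene. The first pair lies at the *Arntl* start on chromosome 7, at chr7:113207495-113207521 and chr7:113207531-113207557 (plus strand), and the third from base -153 to base -148 of the *Bhlhe41* start, within chr6:145865518-145865623 (minus strand).
Arntl, RRE with TAGGTTA: ggtcggaaagTAGGTTAgtggtgcgac
Arntl, RRE with TAGGTCA: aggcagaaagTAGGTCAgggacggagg
Bhlhe41, E-box with CACGTG: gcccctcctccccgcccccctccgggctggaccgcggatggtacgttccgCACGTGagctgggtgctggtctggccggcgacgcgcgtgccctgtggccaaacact

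The search covered 300 bases around each RefSeq start, 250 of them before it, on both strands with exact letters only. The part of the window past the start was added after values were seen. It took CACGTG as the E-box, CACGTT as the E′-box, TTATGTAA or else TTACGTAA as the D-box, and TAGGTCA or else TAGGTTA as the core of the RRE. No motif searched overlapped another in the members. Of 2 RefSeq starts of *Arntl*, the later one has TAGGTTA across the start itself, from base -6 to base 1, and TAGGTCA at bases 31 to 37. The earlier start has the same TAGGTTA at bases 41 to 47, counting the start as base 1. Of all 32851 start regions of this length, 1.44% hold TAGGTTA, 2.61% hold TAGGTCA and 16 (0.0487%) hold both. In the 250 bases strictly before a start, *Arntl* has no match to any motif searched. The E-box of *Bhlhe41* has its like in 6.02% of all such 250-base stretches, the E′-box occurs in 3.85%, and the D-box letters TTATGTAA in 0.819% and TTACGTAA in 0.113%. The start regions of *Clock* (3 starts), *Npas2* (1) and *Arntl2* (1) hold none of these letters, and that of *Bhlhe40* was not searched. A match is a string of letters and not a measured binding site, and factor binding was not measured here.

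*Arntl*, the targeted gene, encodes BMAL1. Its probe set (10556463) gave 569, 609.8 and 664 intensity units in Bmal1-/- skin, against 325, 364.5 and 355.5 in Bmal1+/- skin. The lowest Bmal1-/- value was thus well above the highest Bmal1+/- value. The means were 614 ± 47.3 and 348 ± 20.9 (SD, n = 3 mice each), 1.76-fold apart, with a log2 fold change of 0.79 (SE 0.08, 95% confidence interval 0.61 to 0.97, adjusted p = 0.0037 from limma). The call held in all 17 alternative fits, with adjusted p from 4.2e-06 to 0.025. The sources used here do not say whether the probes fall inside the deleted stretch. This signal is therefore a level of RNA matched by the probe set, and it neither checks the genotype labels nor shows that a functional transcript was made.

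*Clock* encodes the bHLH-PAS partner of BMAL1. Intensities of its probe set (10530733) were 1401, 1542 and 1513 in Bmal1-/- skin, against 1105, 1000 and 945 in Bmal1+/- skin. Again no Bmal1-/- mouse reached down to a control, and the control nearest to them was replicate 1, the male. The means were 1485 ± 74.3 and 1017 ± 81.4 (SD, n = 3 each), and the log2 fold change was 0.54 (SE 0.07, 95% confidence interval 0.38 to 0.70, adjusted p = 0.018 from limma). The size was stable, at 0.49 to 0.60 over the alternatives, and the call was less so. It was lost in 7 of 17 alternative fits, with adjusted p up to 0.11, among them those without Bmal1-/- replicate 2 (adjusted p = 0.063), Bmal1-/- replicate 3 (0.078), Bmal1+/- replicate 2 (0.080) and Bmal1+/- replicate 3 (0.087), each in turn. Without the male mouse, which is also the one with a label of postnatal day 23, the log2 fold change was 0.60 (adjusted p = 0.018 from limma). Sex and age cannot be told apart there.

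*Arntl2* encodes the paralog of BMAL1 that can likewise pair with CLOCK. Its probe set (10542764) read 605, 613.5 and 576 in the Bmal1-/- mice, against 674, 714 and 689 in the Bmal1+/- mice. Both genotypes were tight, with a coefficient of variation of 3.25% and 2.88%. The means of 598 ± 19.4 and 692 ± 19.96 (SD, n = 3 each) differed by a log2 fold change of -0.21 (SE 0.06, 95% confidence interval -0.34 to -0.07), which did not pass the test over all probe sets (adjusted p = 0.36 from limma). The difference was small beside that of *Arntl*, and it ran from -0.22 to -0.18 over the 17 alternative fits. As the genotypes did not overlap, only the other normalizations among these could have changed its sign.

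*Bhlhe41* encodes DEC2, a repressor that competes with CLOCK/BMAL1 at E-boxes. Its difference was close in size to that of *Arntl*, in the other direction, and it had the widest spread of the 5 genes. *Arntl* had the larger difference without Bmal1-/- replicate 1 (0.84, against -0.66 for *Bhlhe41*), and without Bmal1+/- replicate 2 the sizes were alike (0.82 and -0.82). Its probe set (10549276) gave 252.7, 344 and 482 intensity units in the Bmal1-/- mice, against 583, 716 and 669 in the Bmal1+/- mice. All Bmal1-/- mice were lower, replicate 1 by far and replicate 3 least. The means were 360 ± 115 and 656 ± 67.5 (SD, n = 3 each), and the coefficient of variation was 32.1% in Bmal1-/- and 10.3% in Bmal1+/- skin. The log2 fold change was -0.88 (SE 0.19, 95% confidence interval -1.30 to -0.46, adjusted p = 0.15 from limma). Without Bmal1-/- replicate 1, the lowest mouse, it was -0.66 (adjusted p = 0.23), without Bmal1-/- replicate 3, the highest of that genotype, it was -1.11 (adjusted p = 0.022), and over all alternative fits the adjusted p ran from 0.0014 to 0.38.

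*Bhlhe40* encodes DEC1, the paralogous repressor, which is also induced by many stimuli outside the clock. The intensities of its probe set (10540472) were 362, 449.8 and 469 in Bmal1-/- skin, against 483, 574 and 501 in Bmal1+/- skin. The genotypes did not overlap, but the gap between the highest Bmal1-/- and the lowest Bmal1+/- mouse was narrow. The means were 427 ± 56.9 and 519 ± 48.4 (SD, n = 3 each), and the log2 fold change was -0.28 (SE 0.11, 95% confidence interval -0.52 to -0.04, adjusted p = 0.49 from limma). Without Bmal1-/- replicate 1 it was -0.17 and without Bmal1-/- replicate 3 it was -0.35. Among the Bmal1-/- mice, replicate 1 was lowest and replicate 3 highest for *Arntl*, *Bhlhe40* and *Bhlhe41* alike. For *Clock* replicate 1 was lowest too and replicate 2 highest, and for *Arntl2* replicate 3 was lowest. The median intensity over all probe sets was also lowest in Bmal1-/- replicate 1 (219) and highest in replicate 3 (234.5) of that genotype. Whether this had a part in the order of the mice was not tested.

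Differences between members were compared within arrays, as the difference of their log2 values in each mouse, in 4 pairs. The log2 difference *Arntl* minus *Arntl2* was -0.09, -0.0085 and 0.20 in the Bmal1-/- mice, against -1.02, -0.94 and -0.92 in the Bmal1+/- mice, so that the fold changes of the paralogs lay 1.00 apart. The log2 difference *Bhlhe41* minus *Bhlhe40* was -0.49, -0.37 and 0.04 in the Bmal1-/- mice, against 0.26, 0.31 and 0.41 in the Bmal1+/- mice, and the fold changes lay -0.60 apart. The fold change of *Arntl* was 0.25 above that of *Clock* and 1.67 above that of *Bhlhe41*. In every pair the 3 Bmal1-/- mice lay wholly to one side of the 3 Bmal1+/- mice. For *Arntl* with *Arntl2* and *Arntl* with *Bhlhe41* this had to be so, as the single genes separate the genotypes in opposite directions. The exact p of those pairs was thereby fixed and adds nothing to the single genes. All the pairs were chosen after values were seen. For *Arntl* over *Clock* the margin was narrow, with -1.32 to -1.17 in Bmal1-/- and -1.72 to -1.37 in Bmal1+/- mice. The two-sided exact permutation test gave p = 0.1 for each pair and 0.1 after Benjamini-Hochberg adjustment over the 4, and 0.1 is the smallest p that 3 mice against 3 allow, also for each single gene.

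**Figure D2:**
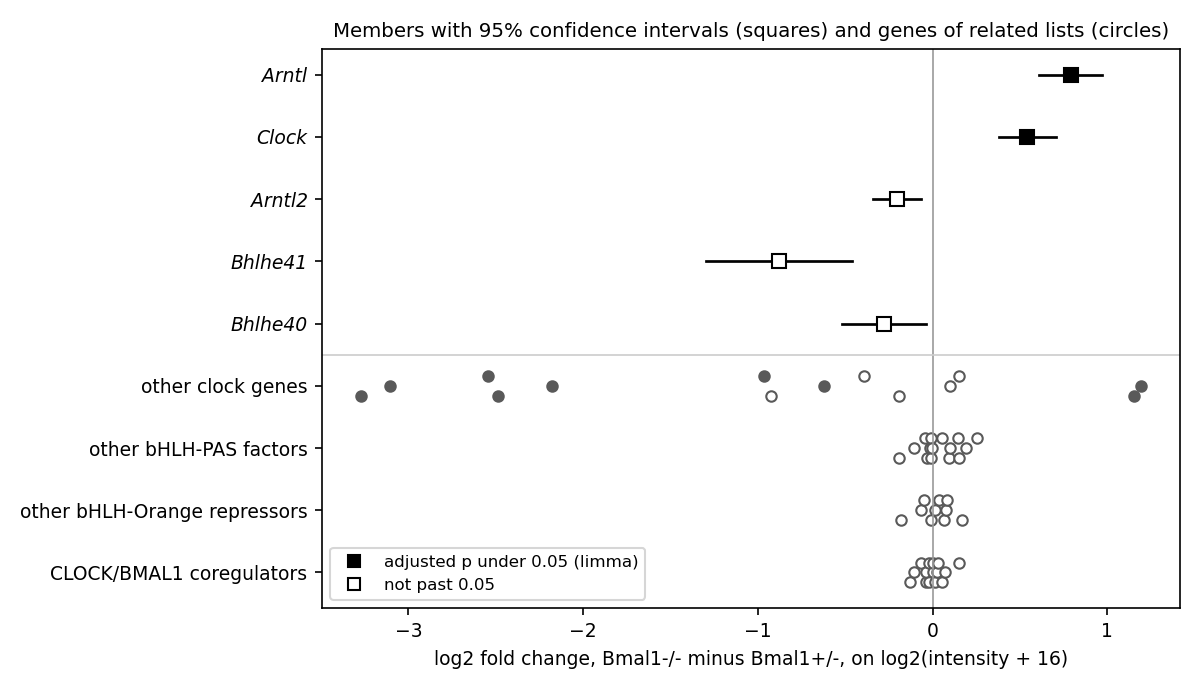
log2 fold change of Bmal1-/- minus Bmal1+/- skin on the scale log2(intensity + 16) (horizontal axis) for the 5 measured bHLH clock factors (squares, with 95% confidence intervals) and for the genes of 4 related lists (circles); filled symbols had an adjusted p under 0.05 from limma. Squares run from -0.88 for *Bhlhe41* to 0.79 for *Arntl*, and the bHLH relatives outside the clock lie between -0.19 and 0.25.

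Relatives of the same folds outside the clock were set beside the members. Of 15 bHLH-PAS factors and coactivators, all measured, 0 were called with limma or with the Cyber-T type test. An unadjusted p under 0.05 with limma was reached by 2, *Sim1* and *Hif1a*, and by at least 1819 of the 23410 probe sets. The median log2 fold change was -0.003, against 0.016 over all 19938 genes. The largest differences were those of *Sim1* and *Sim2*, bHLH-PAS factors known from neural development. The intensity of *Sim1* averaged 117 ± 1.90 in Bmal1-/- skin and 96.0 ± 9.48 in Bmal1+/- skin, a log2 fold change of 0.25 (adjusted p = 0.50 from limma). *Sim2*, dim with both means below 64, had 59.6 ± 7.35 and 50.8 ± 12.3, a log2 fold change of 0.19 (adjusted p = 0.75). Its genotypes overlapped. *Hif1a*, the oxygen-regulated bHLH-PAS factor, is named here after its values were seen. It had 1529 ± 14.4 and 1749 ± 78.5, a log2 fold change of -0.19 (adjusted p = 0.34). All its Bmal1-/- values lay below all Bmal1+/- values, as in 7.68% of all probe sets. *Arnt*, the general partner of this class, had 1196 ± 56.7 in Bmal1-/- and 1286 ± 19.1 in Bmal1+/- skin and is likewise named after its values were seen (log2 fold change -0.10, adjusted p = 0.65 from limma). Of 10 bHLH-Orange repressors of the Hes and Hey families, the class to which BHLHE40 and BHLHE41 are related, 0 were called with either test and 0 had an unadjusted p under 0.05. Their median was 0.022. *Hes2* had 372 ± 25.4 and 433 ± 114, a log2 fold change of -0.18, and *Hes3* had 292 ± 18.1 and 260.2 ± 40.8, a log2 fold change of 0.17, in Bmal1-/- and Bmal1+/- skin.

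Of 17 coregulators that CLOCK and BMAL1 are known to work with, 15 were measured. None was called with limma or the Cyber-T type test, none had an unadjusted p under 0.05, and the median log2 fold change was 0.003. The largest differences were in *Kat2b*, a histone acetyltransferase, with 749.5 ± 77.3 in Bmal1-/- and 672 ± 36.8 in Bmal1+/- skin (log2 fold change 0.15, adjusted p = 0.65 from limma), and in *Ezh2*, a histone methyltransferase, with 1013 ± 86.3 and 1108 ± 28.8 (-0.13, adjusted p = 0.65).

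The other clock genes form the loops around these factors. Of 15 listed, 14 were measured, of which 2 rose, 7 fell and 5 did not pass, with a median log2 fold change of -0.77. Part of this list was named by the study from these samples, so its direction is not independent evidence. The REV-ERB receptors *Nr1d2* and *Nr1d1*, which repress through RREs, had the largest falls of the list. *Nr1d2* fell by 3.27 on the log2 scale (adjusted p = 6.2e-06 from limma) and *Nr1d1* fell by 3.11 (adjusted p = 2.0e-05). *Dbp*, an activator through D-boxes, fell by 2.55 (adjusted p = 6.2e-06) and *Ciart*, a repressor of CLOCK/BMAL1, fell by 2.49 (adjusted p = 0.00024). Each of these 4 falls was larger than the difference in any of the 5 bHLH clock factors.

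Genes with the most similar profiles to the 2 called members were found over the 6 arrays, by the root mean square difference of log2 values after centring each gene on its own mean. For *Arntl*, whose own profile spans 0.997 on that scale, these were *Klhl13* (0.101), *Mpp3* (0.119) and *Tead4* (0.123). *Klhl13*, a substrate adaptor of a ubiquitin ligase, averaged 493.5 in Bmal1-/- and 306 in Bmal1+/- skin (log2 fold change 0.66), *Mpp3*, a membrane scaffold protein, 324 and 200.6 (0.66), and *Tead4*, a transcription factor of the Hippo pathway, 462 and 306 (0.57). With limma, *Klhl13* (adjusted p = 0.0081) and *Tead4* (0.022) were called and *Mpp3* (0.115) was not. For *Clock*, with a span of 0.697, they were *Anxa13*, an annexin (0.0545), *H2-M9*, a class I-like histocompatibility gene (0.077), and *Ankrd61* (0.089). *Anxa13* averaged 53.0 and 33.5 (log2 fold change 0.49), *H2-M9* 138 and 96.8 (0.45) and *Ankrd61* 61.7 and 42.9 (0.40). None of these 3 was called with limma (adjusted p = 0.267, 0.152 and 0.265). *Anxa13* and *Ankrd61* were dim, with both means below 64, the intensity used as a dim filter. Over 6 arrays in 2 genotypes, likeness to a member that separates the genotypes selects genes that separate them too, so these fold changes are a description of the choice.

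**Figure D3:**
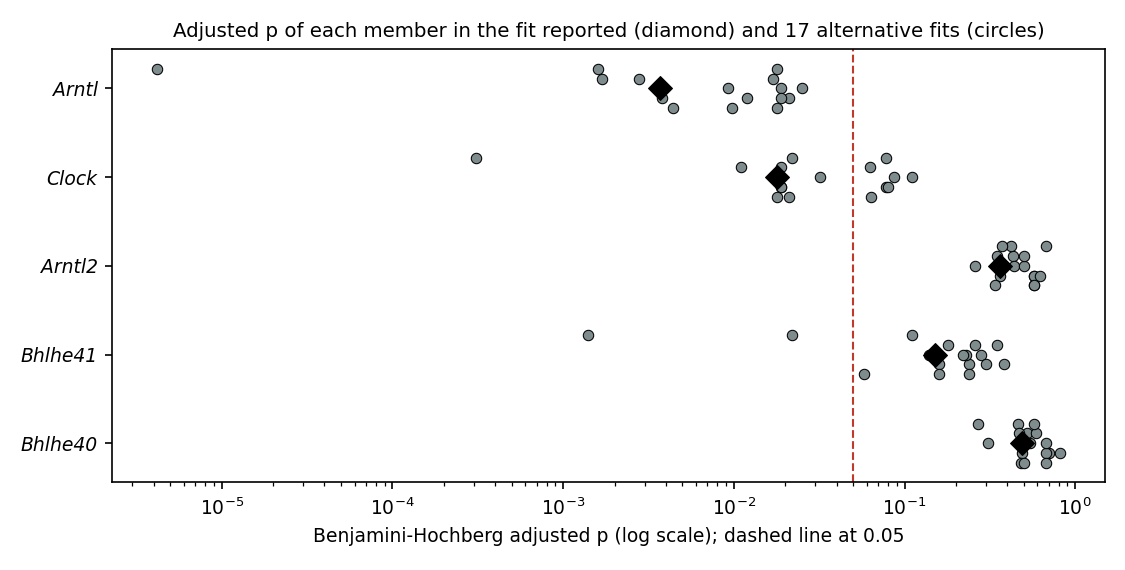
Benjamini-Hochberg adjusted p (horizontal axis, log scale) of each of the 5 measured bHLH clock factors in the limma fit reported (diamonds) and in 17 alternative fits (circles), with a dashed line at 0.05. All circles of *Arntl* lie left of the line, those of *Clock* fall on both sides up to 0.11, *Bhlhe41* has 2 to the left, and *Arntl2* and *Bhlhe40* have none.

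Over all probe sets the median intensity of an array lay between 219 and 235.5. Marker lists of the cell types that skin holds had 0 genes called with limma. An unadjusted p under 0.05 with limma was found for 6 single markers, and for at least 1819 of the 23410 probe sets. Summed keratinocyte markers ran from 48180 to 54250 in Bmal1-/- and from 51190 to 56590 in Bmal1+/- skin, and fibroblast markers from 46920 to 51990 and from 50390 to 55530. Adipocyte markers summed to 10700 to 14570 and 11340 to 11990, striated muscle markers to 51770 to 57750 and 49950 to 63490, endothelial markers to 3556 to 4666 and 3415 to 3711, and immune markers to 6143 to 7727 and 7175 to 7400, in Bmal1-/- and Bmal1+/- skin. No marker was at 0, and the dimmest, the melanocyte gene *Tyr*, averaged 71. Markers of the growing hair follicle ran from 839 to 1111 in Bmal1-/- and from 753 to 1470 in Bmal1+/- skin. The summed level of 5 melanocyte markers did not overlap between genotypes, with 1040 to 1224 in Bmal1-/- and 1456 to 1892 in Bmal1+/- skin. Of these, 4 had lower means in Bmal1-/- skin, all with an unadjusted p under 0.05, and the lowest adjusted p was 0.12 from limma. Whether this had a part in the differences of the bHLH clock factors was not tested. In whole skin, fewer cells of a type and less RNA per cell cannot be told apart.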

How the data were processed

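Total RNA of dorsal skin was labelled and hybridised to Affymetrix Mouse Gene 1.0 ST arrays. The authors deposited 1 linear intensity per probe set and array, summarised per the labels with PLIER 2.0 in Expression Console 1.1. The sources used here give no genome build for the probe sets. The annotation pairs 21789 of 35557 probe sets with 1 gene symbol, 1621 with several and 12147 with none, and those with at least 1 (23410) were tested. Values were taken as log2(intensity + 16) and fitted with limma 3.58.1 (lmFit, eBayes with a variance trend) in R 4.3.3, Bmal1-/- minus Bmal1+/-, with Benjamini-Hochberg adjustment over the 23410 and a threshold of 0.05. The offset makes fold changes of dim probe sets smaller than on the linear scale.

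The members and lists were chosen with earlier results of these data known. Named genes are the 6 members. From each related list they are the called genes, up to 4 by size of change, or the 2 largest changes where none was called. For each called member they are also the 3 genes closest in profile. The related lists hold other clock genes, bHLH-PAS factors, bHLH-Orange repressors, coregulators and hypoxia-induced genes, each gene by its brightest probe set with 1 symbol. The 4 pairs of members and the motif window past the start were chosen after values were seen. Alternatives were other offsets, normalizations, filters, variance settings, a test built after Cyber-T (window 101, prior weight 10), a sex term, a replicate block, other thresholds and leaving out each mouse. Scripts were tested on simulated data. Motifs were read in RefSeq start regions (GRCm38.p6) with Python 3.11.15. The number of arrays, 3 in each genotype, limits the precision.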

Additional observations from a re-analysis of the deposited data

How the results depend on the processing

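There were 19 alternatives, of which 17 were other fits and 2 other thresholds. As the genotypes did not overlap in any of the 5 measured bHLH clock factors, only quantile normalization and median centring could have changed a direction. Neither did, and the same direction in the other alternatives is no further evidence. *Arntl* stayed called and *Arntl2* and *Bhlhe40* stayed uncalled in all 19 alternatives. *Clock* kept its log2 fold change of 0.54 but was no longer called when unannotated probe sets were tested too (adjusted p = 0.078), without a variance trend (0.11) and with the replicate block (0.064), in limma. Leaving out 1 mouse at a time gave 0.49 to 0.60 for *Clock* and -1.11 to -0.66 for *Bhlhe41*. *Bhlhe41*, at -0.88, was called by the Cyber-T type test (adjusted p = 0.0014) and at an unadjusted p under 0.001. The number of members called higher was 1 with unannotated probe sets, without the trend and with the replicate block, and 1 to 2 without single mice. The number called lower was 1 with the Cyber-T type test and with the unadjusted threshold, and 0 to 1 without single mice. Of all probe sets, 54 were called, against 34 with unannotated probe sets, 27 without the trend, 273 with the Cyber-T type test, 152 at an unadjusted p under 0.001 and 90 at an adjusted p under 0.1. Same-numbered mice did not deviate together (correlations of 0.0778, -0.346 and 0.0559 across probe sets), so replicate numbers were not taken as pairs. The replicate block changed no other call among the members, though the adjusted p of *Bhlhe41* was 0.058 with it, against 0.15 in the limma fit reported. The sex term rests on 1 male mouse and gave the fold changes of the fit without that mouse. The same mouse alone has a label of postnatal day 23, so the term cannot tell sex from age. Where a call was lost, the cause was not tested beyond the change of setting named.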

Other observations

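BHLHE40 and BHLHE41 are also known as targets of the hypoxia response, and 12 hypoxia-induced genes were measured beside them. None was called with limma and 1 was called higher with the Cyber-T type test. With limma 3 had an unadjusted p under 0.05, as had at least 1819 of the 23410 probe sets. In Bmal1-/- skin 9 had a higher mean, with a median log2 fold change of 0.082. *Vegfa*, an angiogenic growth factor, averaged 863 ± 21.3 intensity units in Bmal1-/- skin and 669.5 ± 65.0 in Bmal1+/- skin (log2 fold change 0.36, SE 0.08, adjusted p = 0.14 from limma). *Adm*, which encodes the vasodilator adrenomedullin, had 365 ± 61.3 and 295 ± 33.6 (log2 fold change 0.29, SE 0.12, adjusted p = 0.56). The genotypes overlapped in *Adm* and not in *Vegfa*.

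*Bhlhe41* and *Arntl2* both lie on chromosome 6, with 18 genes between them in RefSeq order (GRCm38.p6), of which 7 are protein-coding. All 7 were measured, 0 were called with limma and 0 had an unadjusted p under 0.05. Their log2 fold changes ran from -0.14 for *Sspn* to 0.03 for *Med21*, with a median of -0.037, against -0.88 for *Bhlhe41* and -0.21 for *Arntl2*.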
